A study of Mus musculus with 14 samples.

Results

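The 32 genes described here encode glutamate receptors and the proteins that travel with them in the membrane, and they were taken by name from the 55536 Ensembl genes counted in mouse hippocampus. They are the 4 subunits of the AMPA receptor and 7 of its auxiliary subunits, 7 NMDA receptor subunits, 5 kainate receptor subunits with 2 auxiliary subunits, 6 metabotropic receptors and the delta receptor gene Grid1. The study asked how the kinase IRAK4, which relays signals from toll-like and interleukin-1 receptors, bears on the brain in a mouse model of lupus. Bulk RNA of the hippocampus was sequenced from 14 mice, all 10 months old, with 1 library per mouse. MRL mice (4 libraries) were B6.MRL-Fas lpr mice, which carry the lpr mutation of the death receptor Fas on a C57BL/6 background. MRL-IRAK4-KD mice (4 libraries) carried the same mutation and a kinase-dead IRAK4. C57BL6/J mice (3 libraries) carried neither, and IRAK4-KD mice (3 libraries) were labelled as carrying the kinase-dead IRAK4 alone, a label that the Fas transcripts of 1 of them go against. Per the study's methods, C57BL6/J mice came from a commercial vendor and the other lines from another laboratory, so genotype and source cannot be told apart in comparisons with C57BL6/J mice. Neither mutation is restricted to a cell type or to the brain.

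Glutamate is the main excitatory transmitter of the hippocampus. AMPA receptors carry the fast part of the synaptic current, NMDA receptors admit calcium when transmitter release and depolarization coincide, kainate receptors modulate release and excitability, above all at mossy fibre synapses on CA3 neurons, and metabotropic receptors act through G proteins. Auxiliary subunits (the TARPs encoded by Cacng genes, cornichons, Shisa9 and the Neto proteins) set the trafficking and the gating of the channels they bind.

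Each AMPA receptor subunit gene holds a pair of exons of equal length, called flip and flop, of which a transcript normally contains 1, and the choice changes how quickly the channel desensitizes. Because the counts were also given per transcript, the use of these exons was read in every mouse. The exons of Gria1, which encodes GluA1, and of Gria2, which encodes GluA2 and makes the receptor impermeable to calcium, are shown because they are the most abundant AMPA subunit genes here. Sequences are from GENCODE M21 transcripts on mm10, and capitals mark the 36 positions at which flip and flop differ in each gene (68.7% identity in both). In Gria1 (plus strand) the flop exon lies at chr11:57309769-57309883 and the flip exon downstream of it at chr11:57310608-57310722. In Gria2 (minus strand) the flop exon lies at chr3:80691320-80691434 and the flip exon at chr3:80690404-80690518.
Gria1 flip exon: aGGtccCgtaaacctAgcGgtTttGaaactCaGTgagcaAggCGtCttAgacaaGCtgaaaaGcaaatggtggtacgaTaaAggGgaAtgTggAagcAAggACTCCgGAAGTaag
Gria1 flop exon: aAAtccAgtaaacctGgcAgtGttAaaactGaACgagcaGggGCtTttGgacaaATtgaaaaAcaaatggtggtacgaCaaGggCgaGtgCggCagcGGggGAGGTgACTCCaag
Gria2 flip exon: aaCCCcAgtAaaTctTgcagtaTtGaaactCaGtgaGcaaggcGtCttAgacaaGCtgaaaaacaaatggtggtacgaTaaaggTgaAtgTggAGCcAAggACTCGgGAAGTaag
Gria2 flop exon: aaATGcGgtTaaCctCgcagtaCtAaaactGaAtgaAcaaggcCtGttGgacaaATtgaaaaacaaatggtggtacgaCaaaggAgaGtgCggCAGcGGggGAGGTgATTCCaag

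Grin1 encodes GluN1, the subunit that every NMDA receptor contains, and it is spliced at 3 places. The N1 exon (63 bases, chr2:25311343-25311405, minus strand) adds a segment to the extracellular domain, and the C1 exon (chr2:25294438-25294548) adds a cytoplasmic segment involved in trafficking. The third choice lies in the last exon, which begins either at base 25292484 of chromosome 2 (1304 bases long, with the C2 stretch) or at base 25292128 (948 bases long, without it). Both cassette exons are shown because their inclusion is reported below.
Grin1 N1 exon: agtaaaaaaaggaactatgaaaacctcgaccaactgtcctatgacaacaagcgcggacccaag
Grin1 C1 exon: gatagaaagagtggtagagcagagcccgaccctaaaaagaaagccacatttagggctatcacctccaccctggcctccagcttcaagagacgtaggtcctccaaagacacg

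Libraries held between 279941472 and 572398312 counts, of which the 32 genes took between 0.447% and 0.610%, and all of them passed the filter of 10 counts in total. The gene with the fewest counts was Grin3b, with 45 counts in the library where it was lowest. Some libraries stood apart before any gene was compared. MRL-IRAK4-KD replicate 4 was the highest of the 14 mice for 10 of the 32 genes and the lowest for 10 more. It also stood apart over all genes, at 256.8 on the first principal component, with the other mice between -40.9 and 7.4. Its counts per read listed by the sequencing core were 1.40, against 1.80 to 2.08 in the others. The library was kept in the main fits. The library labelled IRAK4-KD replicate 3 had 0 counts of the full-length Fas transcript, as in lpr mice, while IRAK4-KD replicates 1 and 2 had 360 and 386. It had 514 counts of another Fas transcript (ENSMUST00000235709.1), which had between 268 and 964 in lpr mice and at most 7 in C57BL6/J mice and the other IRAK4-KD mice. It was the highest of the 14 for 9 of the 32 genes, and its striatal markers summed to 521.8 CPM (counts scaled to library size with TMM factors) against 115.1 and 149.9 CPM in the other IRAK4-KD mice. Neocortical markers (7 genes, among them Cux2 and Lamp5) summed to 413.8, 311.3 and 315.9 CPM in MRL replicates 2, 3 and 4, to 181.0 CPM in MRL replicate 1 and to between 146.0 and 258.2 CPM in the other 10 mice. The part of these differences in the results was not tested. In bulk RNA, fewer cells of a type and less RNA per cell cannot be told apart.

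The heat map of all members shows how these libraries differ gene by gene.

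**Figure D1:**
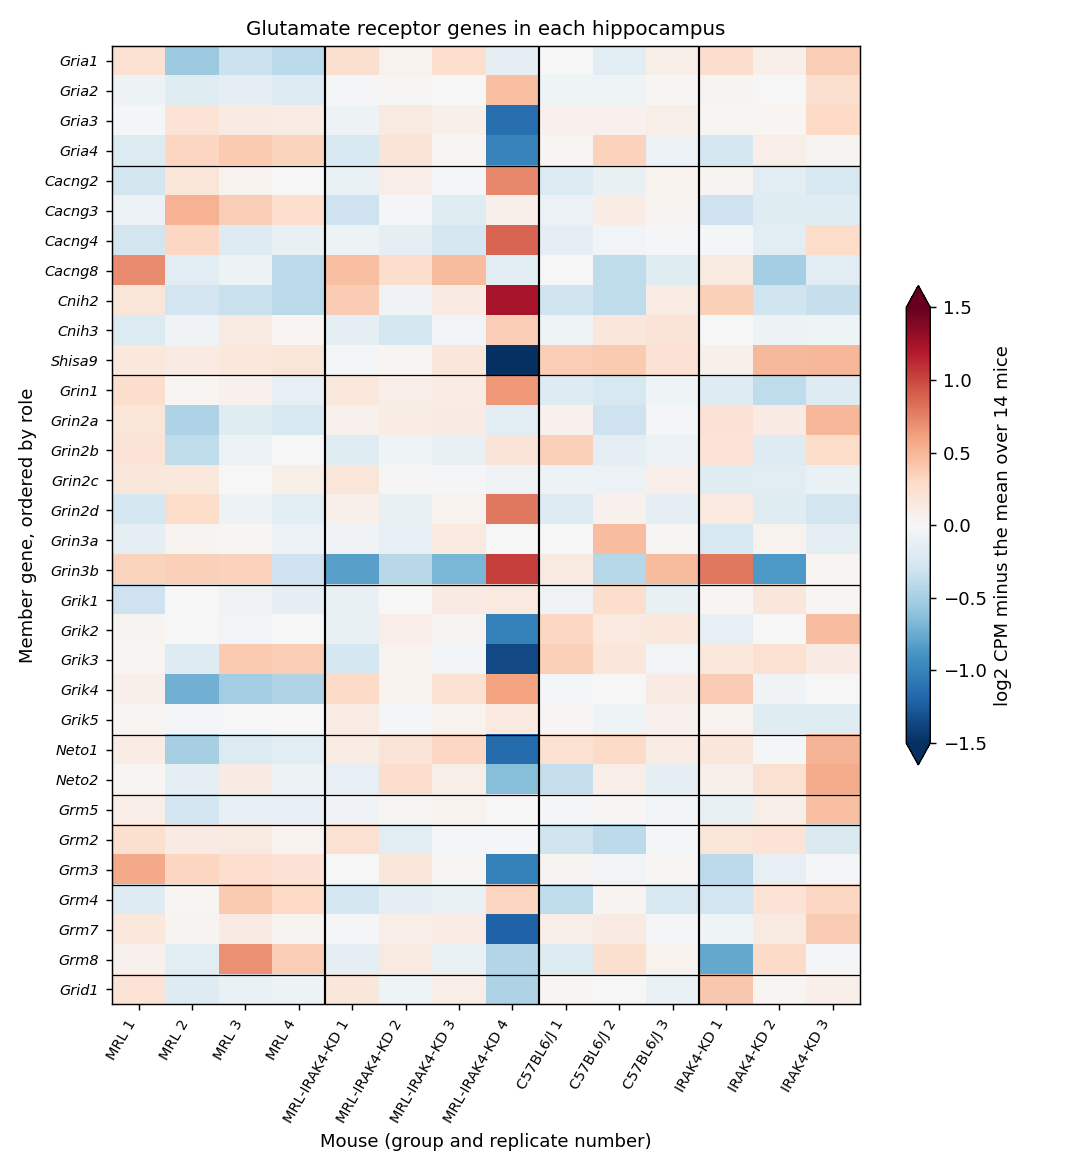
Each row is a gene and each column a mouse; colour gives log2 CPM minus the gene's mean over the 14 mice, and lines separate roles and groups. MRL-IRAK4-KD replicate 4 is the most strongly coloured column, with Shisa9 far below and Cnih2 far above the other mice.

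Levels between genes were compared as CPM per kilobase of annotated exon, averaged over the 14 mice. The highest was Cnih2, a cornichon that slows AMPA receptor closing, at 189 ± 75.5 CPM per kb (SD, n = 14), followed by Gria1 at 153 ± 27.8 CPM per kb, and these neighbours did not differ beyond their spread. Gria2 followed at 68.9 ± 8.67 CPM per kb. Grin1 (37.8 ± 7.46 CPM per kb) and Grik5 (36.8 ± 2.35 CPM per kb), the kainate subunit GluK5, were next and overlapped. The genes ranked from Cacng8 (24.7 ± 6.59 CPM per kb) to Neto1 (17.9 ± 4.21 CPM per kb) formed a group whose ranges overlapped, and it held Cacng3, Grm5, Gria3, Grin2b, Grin2a, Cnih3 and Cacng2. Another 16 genes lay between 2.02 CPM per kb (Grik1) and 10.7 CPM per kb (Shisa9). At the bottom stood Grm8 (0.598 ± 0.146 CPM per kb) and Grin3b (0.0689 ± 0.0287 CPM per kb). With the length of the longest transcript in place of all exons, Gria2 (103 CPM per kb) and Grin1 (85.7 CPM per kb) stood higher, and 12 of the 32 levels moved by more than their SD.

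Within families, Gria1 made up a median of 54.8% to 62.6% of AMPA subunit RNA per length in the 4 groups and Gria4 3.43% to 6.20%. Grik5 made up 59.1% to 64.4% of kainate subunit RNA. Grin2a, the GluN2A subunit of mature synapses, and Grin2b, the GluN2B subunit that dominates early in life, were near parity per length, with a median ratio of 0.886 in MRL, 1.08 in MRL-IRAK4-KD, 0.838 in C57BL6/J and 1.10 in IRAK4-KD mice. These ratios depend on the lengths used: with longest transcripts they were 1.05, 1.29, 0.995 and 1.30.

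**Figure D2:**
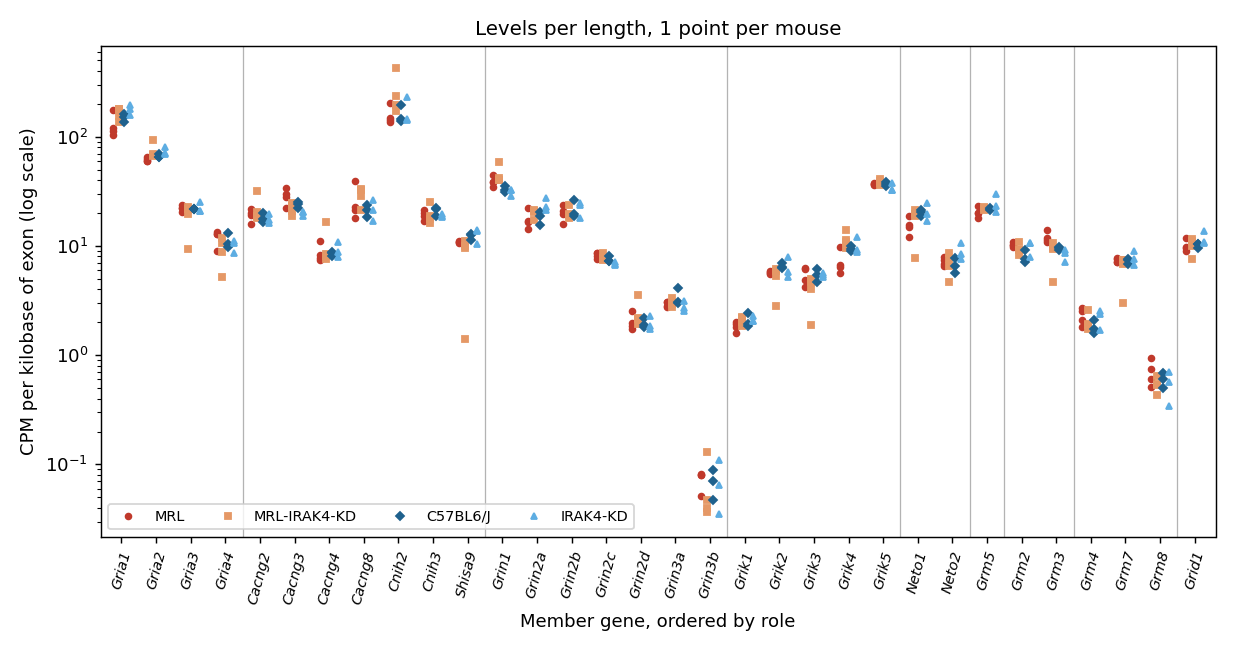
CPM per kilobase of exon on a log scale for the 32 genes, with 1 point per mouse and 1 marker shape per group. Cnih2 and Gria1 stand highest and Grin3b lowest, and for most genes the 4 groups lie close together relative to the distance between genes.

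The main comparison asked how hippocampi of lupus-prone mice differ with and without a working IRAK4 kinase. Of the 32 genes, 6 had an unadjusted p below 0.05 in MRL against MRL-IRAK4-KD mice (18.8%), against 11.4% of all 38070 genes tested. Gria1, Gria2, Cnih2 and Grik4 were lower in MRL mice (4 of 32, where 6.23% of all genes were lower by this rule) and Cacng3 and Grm3 were higher (2 of 32, where 5.14% of all genes were higher). None passed at an adjusted p below 0.05 in edgeR (0 of 32, lowest adjusted p 0.320, where 0.0972% of all genes passed). DESeq2 called 1 of the 32, Grik4, and limma-voom with quality weights called 2, Grik4 and Cacng3, where these tools called 1.34% and 0.559% of the genes given an adjusted p. At an unadjusted p below 0.05 these tools had 5 and 13 of the 32, against 11.7% and 15.4% of all genes. In limma-voom, MRL-IRAK4-KD replicate 4 had a quality weight of 0.0852, against 0.561 to 2.18 in the other mice. That mouse therefore counted little in all limma-voom results. The median log2 fold change of the 32 genes was -0.0168, beside 0.00228 for all genes, and 15 of the 32 lay above 0. Groups did not overlap for 2 of the 32, Gria2 and Grm3 (6.25%, against 5.26% of all genes, 3.13% being higher and 2.14% lower in MRL mice).

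Gria1 encodes a subunit that takes part in the insertion of AMPA receptors during long-term potentiation. It measured 1066, 621.6, 729.9 and 687.5 CPM in MRL replicates 1 to 4, against 1075, 940.2, 1081 and 826.1 CPM in MRL-IRAK4-KD replicates 1 to 4. MRL replicate 1 lay among the MRL-IRAK4-KD mice and the other 3 MRL mice below all of them. C57BL6/J mice measured 916.4, 817.4 and 965.1 CPM and IRAK4-KD mice 1088, 957.3 and 1175 CPM. MRL differed from MRL-IRAK4-KD mice by a log2 fold change of -0.34 ± 0.16 (SE) at an unadjusted p of 0.0479 and an adjusted p of 0.439 in edgeR, with an exact permutation p of 0.114. Left out 1 at a time, MRL replicate 1 gave a log2 fold change of -0.53 (unadjusted p = 0.000791 in edgeR) and MRL replicate 2 one of -0.23 (unadjusted p = 0.180). Without MRL replicate 3 the unadjusted p was 0.126, without MRL replicate 4 it was 0.154, and without MRL-IRAK4-KD replicate 1, 2 or 3 it was 0.113, 0.0763 and 0.144.

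Gria2 measured 1010, 935.7, 967.1 and 931.9 CPM in MRL mice, against 1044, 1075, 1062 and 1451 CPM in MRL-IRAK4-KD replicates 1 to 4. Every MRL mouse was below every MRL-IRAK4-KD mouse, by a narrow margin except for MRL-IRAK4-KD replicate 4. C57BL6/J mice, at 1016, 1022 and 1077 CPM, were above all MRL mice and overlapped MRL-IRAK4-KD mice, and IRAK4-KD mice measured 1092, 1072 and 1253 CPM. Its log2 fold change was -0.27 ± 0.11 (SE), with an unadjusted p of 0.0281 and an adjusted p of 0.437 in edgeR, and the exact permutation p was 0.0286, the smallest that 4 mice against 4 allow. Without MRL-IRAK4-KD replicate 4 the log2 fold change was -0.14 (unadjusted p = 0.0674 in edgeR), and without MRL replicate 2, 3 or 4 the unadjusted p was 0.0631, 0.0562 and 0.0739. Gria3, at medians of 219.3 CPM in MRL mice and 203.0 CPM in MRL-IRAK4-KD mice, and Gria4, at 81.7 and 61.0 CPM, had log2 fold changes of 0.27 and 0.41 that did not pass (unadjusted p = 0.195 and 0.0775 in edgeR), and both were lowest in MRL-IRAK4-KD replicate 4.

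Of the 7 AMPA auxiliary subunits, Cnih2 was lower and Cacng3 higher in MRL mice. Cnih2 measured 277.5, 201.5, 195.5 and 186.0 CPM in MRL mice, against 319.3, 236.9, 268.4 and 578.6 CPM in MRL-IRAK4-KD replicates 1 to 4. MRL replicate 1 lay above 2 of the MRL-IRAK4-KD mice, and MRL-IRAK4-KD replicate 4 was the highest of all. For Cnih2 the log2 fold change was -0.71 ± 0.26 (SE) at an unadjusted p of 0.0172 and an adjusted p of 0.437 in edgeR, and the exact permutation p was 0.0857. Without MRL-IRAK4-KD replicate 4 it was -0.35 (unadjusted p = 0.0967 in edgeR), and without MRL replicate 4 the unadjusted p was 0.0532. C57BL6/J mice (188.7 to 265.9 CPM) and IRAK4-KD mice (193.0 to 313.4 CPM) overlapped both.

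Cacng3 encodes the TARP gamma-3, which brings AMPA receptors to the surface. It measured 61.2, 93.1, 83.7 and 77.2 CPM in MRL mice, against 52.5, 64.5, 57.4 and 68.8 CPM in MRL-IRAK4-KD replicates 1 to 4. MRL replicates 2, 3 and 4 were above all MRL-IRAK4-KD mice, and MRL replicate 1 was not. Cacng3 had a log2 fold change of 0.37 ± 0.12 (SE) at an unadjusted p of 0.00929 and an adjusted p of 0.415 in edgeR, with an exact permutation p of 0.0857. The adjusted p was 0.157 by DESeq2 and 0.0362 by limma-voom with quality weights, and it lay between 0.0362 and 0.643 over all 16 alternative fits. Without MRL replicate 1 the log2 fold change was 0.48 (unadjusted p = 0.000868 in edgeR).

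Neither Cacng2 (stargazin), Cacng4, Cacng8 nor Cnih3 passed in this comparison. Cacng8, the TARP gamma-8 that is enriched in hippocampus, measured 92.0, 49.8, 53.4 and 42.5 CPM in MRL mice, against 76.6, 67.1, 78.0 and 49.8 CPM in MRL-IRAK4-KD mice, so MRL replicate 1 was highest of all 14 mice. Cacng8 exceeded Cacng2 per length 2.46 times in that mouse, against a median ratio of 1.06 in MRL and 1.58 in MRL-IRAK4-KD mice. Shisa9, which speeds AMPA receptor desensitization in dentate granule cells, measured between 55.8 and 58.0 CPM in MRL, between 59.5 and 67.2 CPM in C57BL6/J and between 54.2 and 72.8 CPM in IRAK4-KD mice. In MRL-IRAK4-KD mice it measured 50.3, 52.4 and 58.0 CPM in replicates 1 to 3 and 7.30 CPM in replicate 4. In that library the transcript ENSMUST00000023138.7 was estimated at 0 of 2268 Shisa9 counts, an assignment that the quantification model makes, while it held between 79.8% and 87.5% of Shisa9 counts in the other 13 libraries. Cacng2, Cacng4 and Cnih3 lay between 88.0 and 120.3, between 26.5 and 39.8, and between 44.5 and 61.3 CPM in those 13 libraries, and MRL-IRAK4-KD replicate 4 was the highest for each, at 174.6, 58.6 and 69.2 CPM.

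Grik4, the kainate receptor subunit GluK4 that is found mainly in CA3 and dentate neurons, had the smallest p of the 32 genes. It measured 57.9, 33.4, 38.4 and 40.3 CPM in MRL mice, against 66.8, 56.8, 64.5 and 83.7 CPM in MRL-IRAK4-KD mice. It measured 53.9, 55.3 and 60.03 CPM in C57BL6/J and 71.7, 52.8 and 55.1 CPM in IRAK4-KD mice. MRL replicates 2, 3 and 4 were below all other 11 mice, and MRL replicate 1 lay among them. The log2 fold change of MRL against MRL-IRAK4-KD mice was -0.68 ± 0.17 (SE) at an unadjusted p of 0.00123 and an adjusted p of 0.320 in edgeR. The exact permutation p was 0.0571, since 1 MRL mouse exceeded 1 MRL-IRAK4-KD mouse. The adjusted p was 0.0310 by DESeq2, 0.0211 by limma-voom with quality weights, and it ranged from 0.0211 to 0.643 over 16 alternatives, of which 3 were below 0.05 (these tools and edgeR without MRL replicate 1). The log2 fold change lay between -0.87 and -0.56 in all of them, with an unadjusted p below 0.05 in each.

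The MRL mice with low Grik4 and Gria1 and high Cacng3 were the 3 with high neocortical markers. Dentate gyrus markers (6 genes) summed to 381.0 CPM in MRL replicate 1 and to 205.0, 220.4 and 233.7 CPM in replicates 2, 3 and 4, against 281.5 to 347.3 CPM in MRL-IRAK4-KD mice. The same markers summed to 308.1, 169.5 and 279.2 CPM in C57BL6/J replicates 1 to 3 and to between 300.8 and 361.3 CPM in IRAK4-KD mice. C57BL6/J replicate 2, with the lowest dentate sum of all mice, had Grik4 at 55.3 CPM and Gria1 at 817.4 CPM. CA3 markers (5 genes) summed to between 243.2 and 287.4 CPM in MRL, between 234.7 and 548.1 CPM in MRL-IRAK4-KD, between 335.1 and 425.0 CPM in C57BL6/J and between 215.1 and 359.0 CPM in IRAK4-KD mice. The part of these markers in the differences of Grik4, Gria1 and Cacng3 was not tested.

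**Figure D3:**
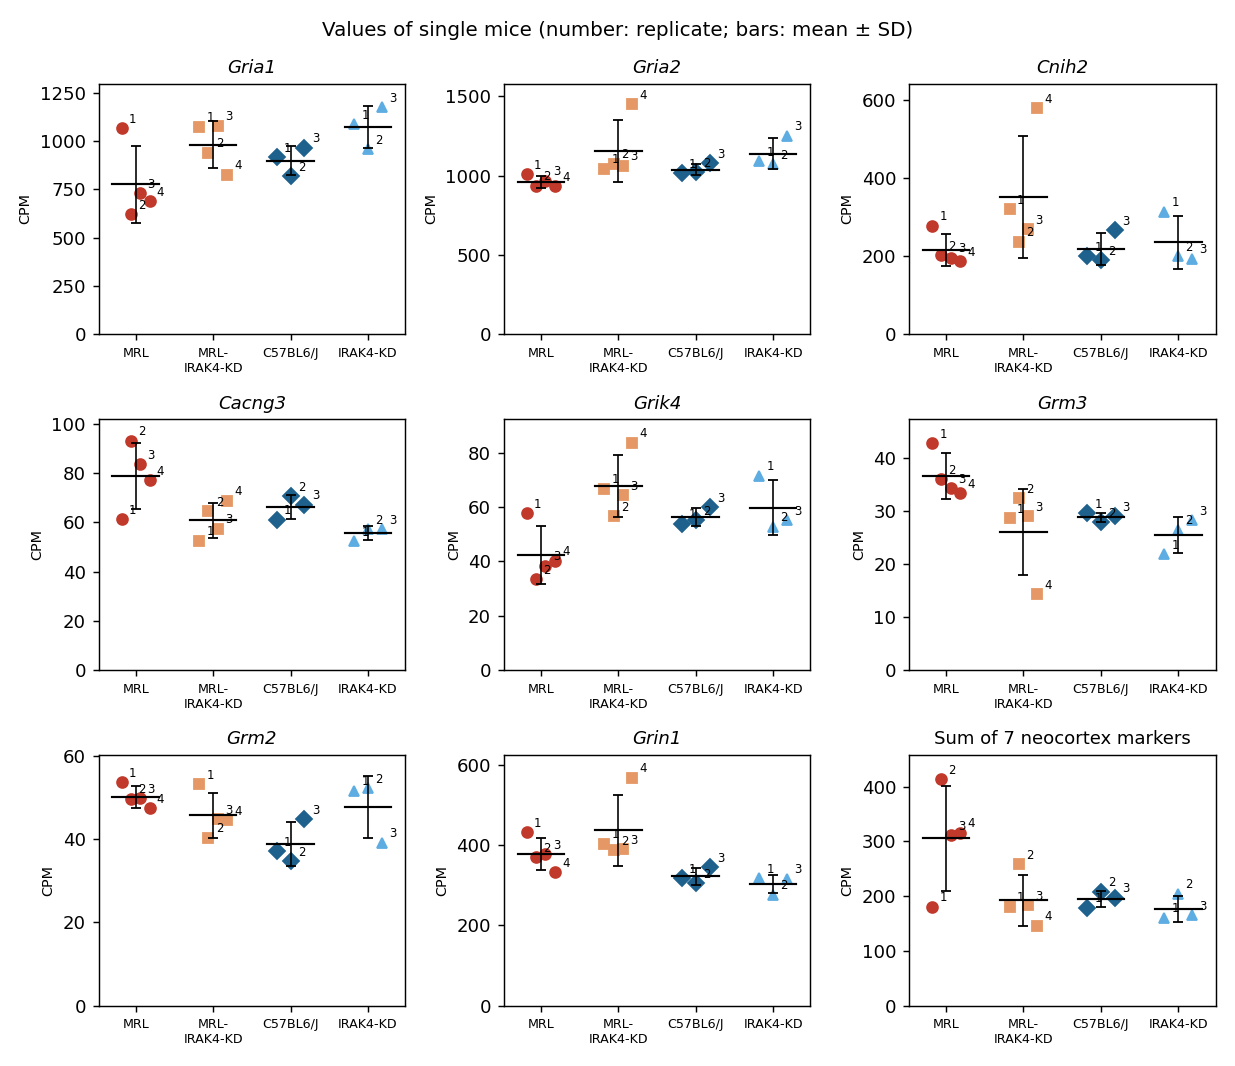
CPM of 8 members and the sum of 7 neocortical markers, with 1 point per mouse labelled by its replicate number and bars for the group mean ± SD. In Gria1, Cnih2, Cacng3 and Grik4, MRL replicate 1 lies apart from MRL replicates 2 to 4, as it does in the marker sum.

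The other kainate genes did not pass. Grik5 varied least of all members, from 166.9 to 210.6 CPM over the 14 mice (a coefficient of variation of 6.38%). Without MRL-IRAK4-KD replicate 4 and the library labelled IRAK4-KD replicate 3, Grm7 (4.82%), Grik5 (4.89%) and Gria3 (5.21%) varied about equally. Per length, Grik4 reached a median of 0.180 of Grik5 in MRL, 0.284 in MRL-IRAK4-KD, 0.262 in C57BL6/J and 0.286 in IRAK4-KD mice, given as a description. Grik1 lay between 10.8 and 16.2 CPM. Grik2 and Grik3, which encode the pore-forming subunits GluK2 and GluK3, had log2 fold changes of 0.19 and 0.47 between MRL and MRL-IRAK4-KD mice (unadjusted p = 0.349 and 0.0636 in edgeR; limma-voom with quality weights gave -0.0073 for Grik2), and both were lowest in MRL-IRAK4-KD replicate 4, at 37.4 and 16.9 CPM. The auxiliary subunits Neto1 and Neto2, which slow kainate receptor gating, had medians of 127.2 and 43.4 CPM in MRL mice, against 160.3 and 43.5 CPM in MRL-IRAK4-KD mice. Neto1 was also lowest in MRL-IRAK4-KD replicate 4, at 65.0 CPM.

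No NMDA receptor subunit passed between MRL and MRL-IRAK4-KD mice (0 of 7 at an unadjusted p below 0.05 in edgeR, with log2 fold changes from -0.29 to 0.21). Grin1 measured 431.5, 369.7, 376.4 and 332.6 CPM in MRL mice, against 402.9, 386.4, 389.2 and 567.7 CPM in MRL-IRAK4-KD replicates 1 to 4. Its values were 316.7, 305.0 and 345.3 CPM in C57BL6/J and 316.7, 276.6 and 316.0 CPM in IRAK4-KD mice. Grin2a spanned 253.4 to 396.2 CPM in MRL mice, against 312.5 to 379.4 CPM in MRL-IRAK4-KD mice, and Grin2b 392.9 to 589.9 and 451.2 to 585.8 CPM. Grin2c, Grin2d and Grin3a lay between 34.0 and 43.8, between 11.4 and 23.8 and between 31.3 and 51.1 CPM over the 14 mice. Grin3b lay between 0.115 and 0.432 CPM, and the SE of its log2 fold change in this comparison, 0.45, was the largest of the members.

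Among metabotropic receptors, Grm3, a group II receptor found on astrocytes and nerve terminals, was higher in MRL mice. It measured 42.7, 36.0, 34.3 and 33.3 CPM in MRL mice, against 28.6, 32.3, 29.0 and 14.2 CPM in MRL-IRAK4-KD mice, and the groups did not overlap. C57BL6/J mice (27.8 to 29.5 CPM) and IRAK4-KD mice (21.8 to 28.2 CPM) were also below all MRL mice. The log2 fold change against MRL-IRAK4-KD mice was 0.49 ± 0.20 (SE) at an unadjusted p of 0.0255 and an adjusted p of 0.437 in edgeR, and the exact permutation p was 0.0286, the smallest possible. Without MRL-IRAK4-KD replicate 4 it was 0.29 (unadjusted p = 0.00984 in edgeR), and without MRL replicate 1 it was 0.40 (unadjusted p = 0.0813). Astrocyte markers (5 genes) summed to between 1370 and 1621 CPM in MRL mice, against 1360 to 1806 CPM in MRL-IRAK4-KD mice. The highest sum was that of MRL-IRAK4-KD replicate 4, where single markers diverged. Its Gfap (567.6 CPM) and Aldoc (990.7 CPM) were the highest of all mice, and its Aqp4 (73.1 CPM) and Gja1 (118.0 CPM) the lowest. The part of these markers in the difference of Grm3 was not tested. Grm2, the other group II receptor, had a log2 fold change of 0.13 (unadjusted p = 0.283 in edgeR).

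The other metabotropic genes and Grid1 did not pass. Grm5, the group I receptor that couples to calcium release, lay between 183.5 and 307.2 CPM, with the highest value in IRAK4-KD replicate 3. Of group III, which lowers transmitter release, Grm7 lay between 39.2 and 53.1 CPM in 13 mice and at 17.7 CPM in MRL-IRAK4-KD replicate 4, Grm4 between 9.44 and 16.2 CPM and Grm8 between 3.38 and 9.27 CPM. Grid1, whose product binds cerebellins rather than opening to glutamate, lay between 44.9 and 81.7 CPM.

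**Figure D4:**
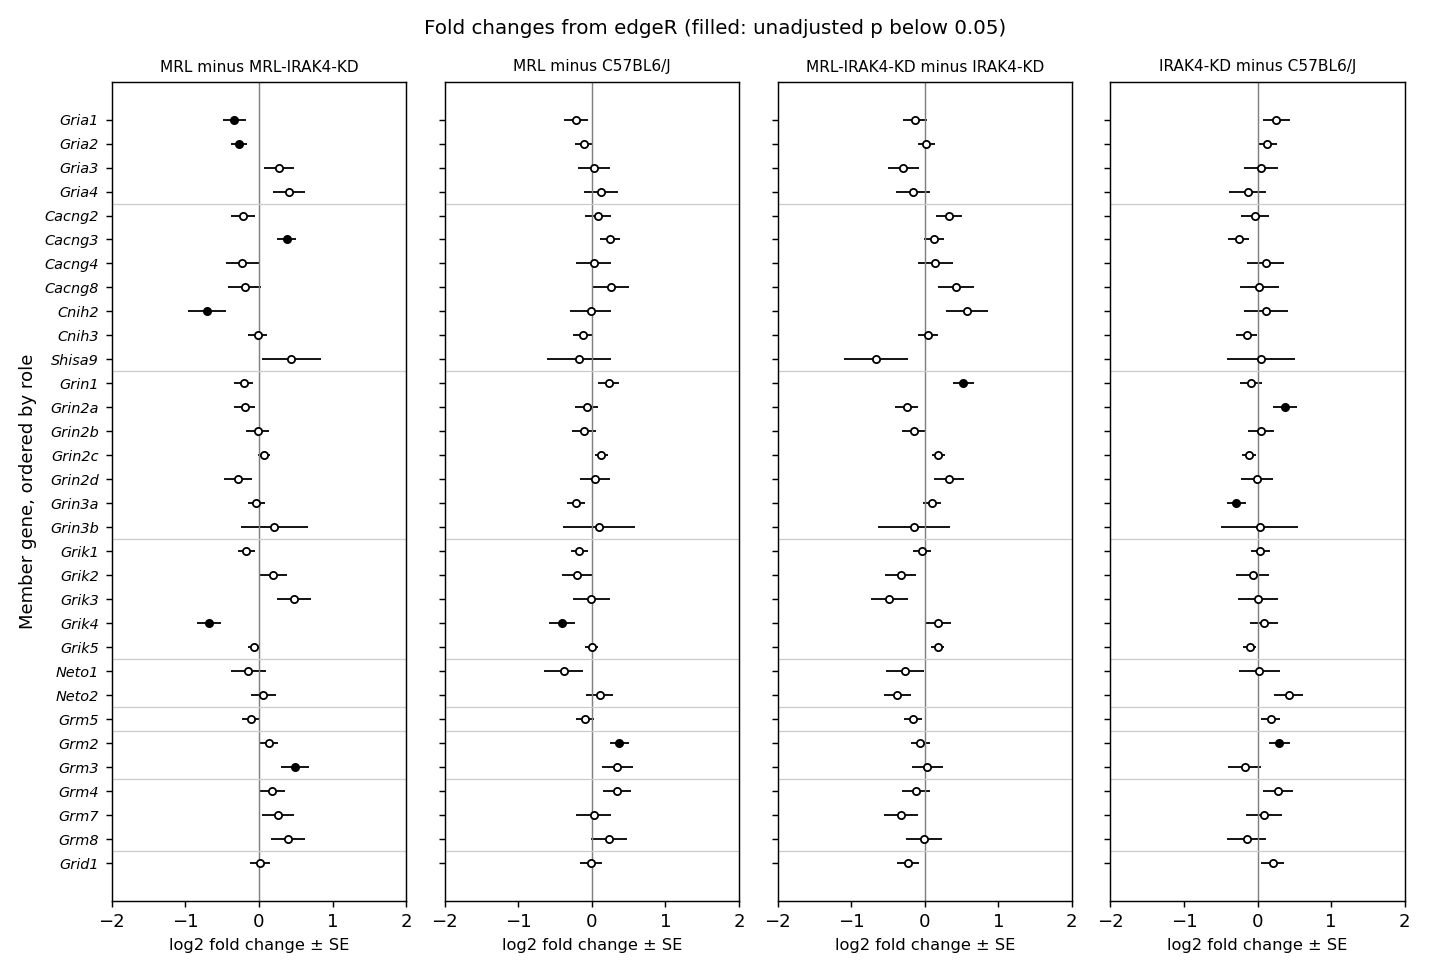
Log2 fold change ± SE from edgeR for the 32 genes in 4 comparisons, ordered by role, with filled points at an unadjusted p below 0.05. Grik4 and Cnih2 lie furthest below 0 in MRL minus MRL-IRAK4-KD, and 6, 2, 1 and 3 points are filled from left to right.

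The comparison of MRL with C57BL6/J mice sets mice with lpr beside mice without it, both with IRAK4 intact but of different source. Of the 32 genes, 2 were at an unadjusted p below 0.05 (6.25%, against 5.55% of all genes), 1 higher and 1 lower (against 3.16% and 2.39% of all genes). At an adjusted p below 0.05, 0 of the 32 passed in edgeR, DESeq2 or limma-voom, which called 0.0%, 0.742% and 0.0998% of the genes given an adjusted p. DESeq2 and limma-voom had 2 and 9 of the 32 at an unadjusted p below 0.05, against 5.96% and 12.1% of all genes. Groups did not overlap for 6 members (18.8%, against 9.62% of all genes): Grm2 and Grm3 were higher in every MRL mouse (as were 4.47% of all genes), and Gria2, Grik2, Neto1 and Shisa9 were lower (as were 5.15%). Grm2 measured 53.7, 49.7, 49.9 and 47.4 CPM in MRL against 37.1, 34.7 and 44.7 CPM in C57BL6/J mice. Its log2 fold change was 0.37 ± 0.13 (SE) at an unadjusted p of 0.0130 and an adjusted p of 0.807 in edgeR. Without C57BL6/J replicate 2 it was 0.31 (unadjusted p = 0.0644). Grik4 had a log2 fold change of -0.41 ± 0.18 (SE) at an unadjusted p of 0.0388 and an adjusted p of 0.897 in edgeR, and leaving out MRL replicate 2, 3 or 4 or any single C57BL6/J mouse raised the unadjusted p to between 0.0595 and 0.124, with a log2 fold change between -0.43 and -0.30. Grm3 had a log2 fold change of 0.35 (unadjusted p = 0.126 in edgeR).

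The kinase-dead allele was compared with its control in IRAK4-KD and C57BL6/J mice, labelled as without lpr, although the Fas transcripts of the library labelled IRAK4-KD replicate 3 go against that label and the groups also differ in source. There 3 of the 32 genes were at an unadjusted p below 0.05 (9.38%, against 3.8% of all genes), 2 higher and 1 lower (against 1.66% and 2.13% of all genes). At an adjusted p below 0.05, 0 of the 32 passed in edgeR, DESeq2 or limma-voom, which called 0.147%, 0.522% and 0.381% of the genes given an adjusted p. DESeq2 and limma-voom had 2 and 5 of the 32 at an unadjusted p below 0.05, against 4.17% and 9.17% of all genes. Grin2a measured 402.9, 378.9 and 491.7 CPM in IRAK4-KD against 364.1, 281.4 and 340.1 CPM in C57BL6/J mice, all higher, with a log2 fold change of 0.37 ± 0.16 (SE) and an unadjusted p of 0.0382 in edgeR. Its highest value was that of the library labelled IRAK4-KD replicate 3, without which the log2 fold change was 0.25 (unadjusted p = 0.173), and the p was also above 0.05 without C57BL6/J replicate 2 (0.154) or 3 (0.0607). Grm2 measured 51.7, 52.3 and 39.1 CPM in IRAK4-KD mice, with a log2 fold change of 0.30 ± 0.14 (SE) and an unadjusted p of 0.0493 in edgeR. Leaving out IRAK4-KD replicate 1 or 2, or C57BL6/J replicate 1 or 2, gave a p of 0.154, 0.168, 0.131 and 0.174 for Grm2. Grin3a, an NMDA subunit that lowers calcium entry, had a log2 fold change of -0.29 ± 0.13 (SE) and an unadjusted p of 0.0457 in edgeR. That value rested on C57BL6/J replicate 2, at 51.1 CPM against 37.2 and 37.5 CPM in the other C57BL6/J mice, and its removal gave a log2 fold change of -0.11 (unadjusted p = 0.358). Without IRAK4-KD replicate 1 or 3 the p of Grin3a was 0.152 and 0.106. The adjusted p of all 3 genes was 1.00 in edgeR. Groups did not overlap for 4 members (12.5%, against 11.2% of all genes), with Grin2a and Grid1 higher (5.63% of all genes) and Cacng3 and Grin2c lower (5.52%) in IRAK4-KD mice.

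Mice with the kinase-dead allele were compared with lpr (MRL-IRAK4-KD) and labelled as without (IRAK4-KD, of which replicate 3 has Fas transcripts that go against the label). Grin1 was higher in MRL-IRAK4-KD mice, though not at an adjusted p below 0.05 in edgeR. Its log2 fold change was 0.53 ± 0.14 (SE) at an unadjusted p of 0.00222 and an adjusted p of 0.391 in edgeR. All 4 MRL-IRAK4-KD mice were above all 3 IRAK4-KD mice. The adjusted p was 0.0661 by DESeq2 and 0.0192 by limma-voom with quality weights, and it ranged from 0.0192 to 0.891 over 15 alternatives, all with the same direction and an unadjusted p below 0.05. Without MRL-IRAK4-KD replicate 4 the log2 fold change was 0.37 (unadjusted p = 0.000955 in edgeR), without IRAK4-KD replicate 3 it was 0.56 (unadjusted p = 0.00571), and without both it was 0.40 (unadjusted p = 0.00220). Grin1 was the 1 member of 32 at an unadjusted p below 0.05 (3.12%, against 8.63% of all genes, 5.18% higher and 3.45% lower). At an adjusted p below 0.05, 0 of 32 passed in edgeR, 0 in DESeq2 and 1 in limma-voom, which called 0.0735%, 1.06% and 0.722% of the genes given an adjusted p. DESeq2 and limma-voom had 3 and 5 of the 32 at an unadjusted p below 0.05, against 9.67% and 12.5% of all genes. Groups did not overlap for 3 members (9.38%, against 8.74% of all genes), with Grin1 and Grin2c higher (4.31% of all genes) and Grik3 lower (4.43%) in MRL-IRAK4-KD mice. Between MRL and C57BL6/J mice, both with IRAK4 intact, Grin1 had a log2 fold change of 0.23 (unadjusted p = 0.124 in edgeR), and the groups overlapped.

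The interaction term asks whether the difference between mice with and without working IRAK4 kinase is the same with and without lpr. It was at an unadjusted p below 0.05 for 2 of the 32 genes (6.25%, against 4.17% of all genes), 1 above and 1 below 0 (against 1.94% and 2.23% of all genes). At an adjusted p below 0.05 it held for 0 of the 32 in edgeR, DESeq2 or limma-voom, which called 0.00263%, 0.193% and 0.0578% of the genes given an adjusted p. DESeq2 and limma-voom had 2 and 5 of the 32 at an unadjusted p below 0.05, against 3.87% and 7.89% of all genes. For Grik4 the term was -0.59 ± 0.25 on the log2 scale (SE, unadjusted p = 0.0360, adjusted p = 0.914 in edgeR), and for Grm2 it was 0.43 ± 0.18 (SE, unadjusted p = 0.0335, adjusted p = 0.914 in edgeR). Without the library labelled IRAK4-KD replicate 3 and MRL-IRAK4-KD replicate 4, the term of Grik4 was -0.42 (unadjusted p = 0.134 in edgeR). Single mice left out in turn gave terms from -0.78 to -0.47 for Grik4, with the p above 0.05 in 9 of 14 fits, and from 0.37 to 0.56 for Grm2, with the p above 0.05 in 6 of 14.

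Transcript counts were used to describe which exons were included, with each transcript's count divided by its length. The counts are StringTie's estimates, in which reads shared by transcripts are assigned by a model, and these shares were chosen after their values had been seen, so they carry no test. Gria1 was mostly of the flop form, with the flip exon in 21.6% to 30.2% of transcripts in MRL, 26.2% to 29.6% in C57BL6/J and 22.0% to 23.8% in IRAK4-KD mice. In MRL-IRAK4-KD mice the share was 24.3%, 25.1%, 24.4% and 36.7%, the last in replicate 4. Gria2 held the flip exon in 14.3% to 20.5% of transcripts in all mice but MRL-IRAK4-KD replicate 4 (9.56%). Every MRL mouse (16.8% to 20.5%) was above every MRL-IRAK4-KD mouse (at most 16.2%), and the share of other genes' exons that do so was not counted. Gria3 was mostly of the flip form, at 87.4% to 99.9% except in MRL replicate 1 (78.3%), and Gria4 held the flip exon in 27.9% to 69.2%. Up to 32.2% of Gria3 counts were assigned to a transcript holding both exons and were left out of its share.

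For Grin1, the C1 exon shown above was included in 56.3% to 71.4% of transcripts over the 14 mice, and the ranges of all groups overlapped. The N1 exon was included in 36.9% to 50.0% in 13 mice and in 10.7% in MRL-IRAK4-KD replicate 4. The C2 stretch of the last exon was the choice that separated lpr mice from mice labelled as without lpr. MRL overlapped MRL-IRAK4-KD mice, and C57BL6/J overlapped IRAK4-KD mice. How many exons of other genes separate the mice in this way was not counted. It was included in 53.4%, 46.8%, 49.4% and 42.6% of Grin1 transcripts in MRL and in 52.4%, 59.5%, 59.5% and 51.0% in MRL-IRAK4-KD mice. It was included in 39.0%, 37.2% and 37.7% in C57BL6/J and in 38.1%, 32.3% and 42.0% in IRAK4-KD mice. All 8 lpr mice were above all 6 mice labelled as without lpr, and the nearest values were the 42.6% of MRL replicate 4 and the 42.0% of the library labelled IRAK4-KD replicate 3, which lacks full-length Fas transcripts. Between 85711 and 206464 counts stood behind each share.

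**Figure D5:**
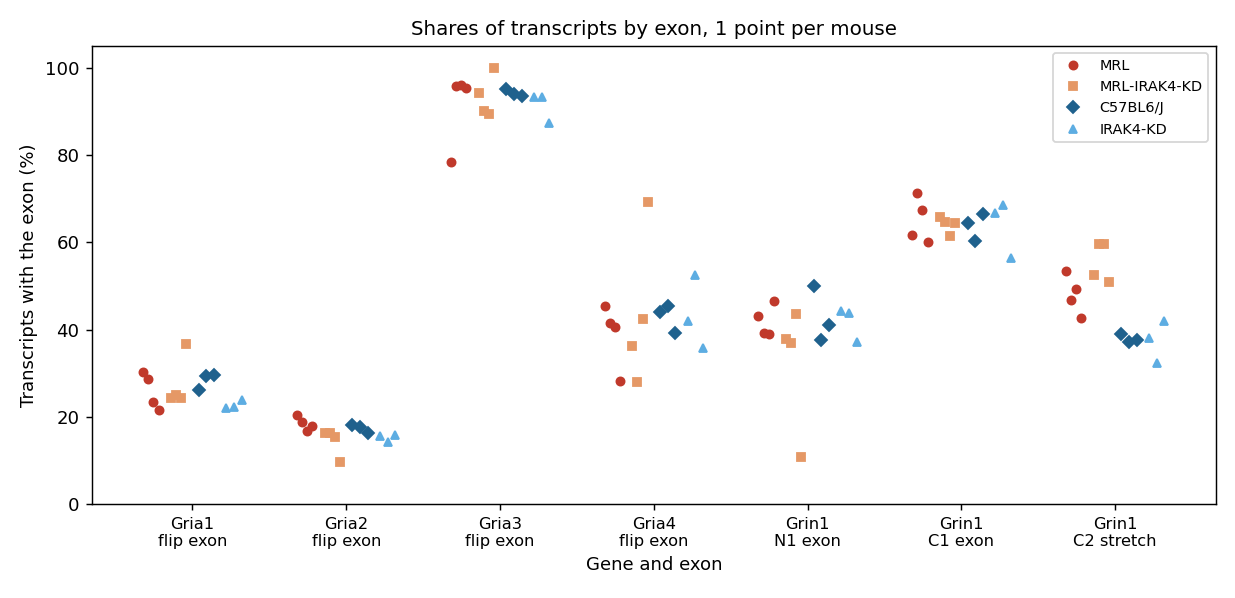
Percent of each gene's transcripts that hold the named exon, from length-scaled transcript counts, with 1 point per mouse and 1 marker per group. The C2 stretch of Grin1 runs from 42.6% to 59.5% in the 8 lpr mice and from 32.3% to 42.0% in the 6 labelled as without lpr. The 42.0% is that of the library labelled IRAK4-KD replicate 3, which lacks full-length Fas transcripts. The C1 exon overlaps in all groups.

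Other genes of the glutamate synapse were read from 4 lists. Of 17 further receptor and auxiliary genes, 1 was higher and 4 lower in MRL than in MRL-IRAK4-KD mice by the unadjusted p, where 5.14% of all genes were higher and 6.23% lower. Gsg1l, an AMPA auxiliary subunit, had a log2 fold change of 0.68 (unadjusted p = 0.0101 in edgeR) and Cacng5 one of -0.43 (unadjusted p = 0.00855). Of 22 scaffold and kinase genes, 2 were higher and 2 lower. Grip1, which anchors GluA2, had a log2 fold change of -0.39 (unadjusted p = 0.00196 in edgeR), Homer3 one of -0.56 (unadjusted p = 0.0190) and Dlg1 one of 0.39 (unadjusted p = 0.0247). Of 13 genes of glutamate release, transport and metabolism, 2 were higher and 1 lower. The vesicular transporter gene Slc17a8 had a log2 fold change of -0.80 (unadjusted p = 0.00175 in edgeR), the transporter gene Slc1a4 one of 0.38 (unadjusted p = 0.0126) and the glutaminase gene Gls2 one of 0.38 (unadjusted p = 0.0203). Of 15 secreted or adhesion organizers, C1ql2 and C1ql1 were lower, with log2 fold changes of -0.66 and -0.43 (unadjusted p = 0.0206 and 0.0490 in edgeR), and C1ql2 is also among the dentate gyrus markers. None of these 4 lists held a gene at an adjusted p below 0.05 in edgeR in any of the 5 comparisons. The median log2 fold changes of the lists, in the order given, were -0.138, 0.117, 0.214 and 0.0497, beside 0.00228 for all genes, and without MRL-IRAK4-KD replicate 4 they were -0.0617, 0.0651, 0.117 and 0.0235. That library was the lowest of its group for the summed scaffold, transport and organizer genes, at 8222, 5247 and 1473 CPM.

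Several of these genes depended on single mice. With MRL-IRAK4-KD replicate 4 left out, the lists held 1, 2, 2 and 0 genes that were higher and 3, 2, 3 and 0 that were lower. In that fit 1967 of all 37836 genes tested were higher by the same rule and 1255 lower. C1ql1 then had a log2 fold change of -0.17 (unadjusted p = 0.238 in edgeR), C1ql2 one of -0.43 (unadjusted p = 0.112) and Homer3 one of -0.49 (unadjusted p = 0.0586), while Dlg1 and Slc1a4 had smaller ones of 0.25 and 0.24 (unadjusted p = 0.0280 and 0.00312). The p of C1ql1, C1ql2, Homer3 and Dlg1 was also above 0.05 without some single MRL mice, and that of Gls2 without MRL replicate 2 (0.0700) or MRL-IRAK4-KD replicate 1 (0.0580) or 3 (0.0545). Gsg1l, Cacng5, Grip1, Slc17a8 and Slc1a4 stayed below 0.05 with each of the 8 mice of these groups left out. For Gsg1l, MRL replicates 2 to 4 (63.4, 52.5 and 57.2 CPM) were above all MRL-IRAK4-KD mice (23.1 to 41.3 CPM). MRL replicate 1 (31.8 CPM) lay among the MRL-IRAK4-KD mice.

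The marker lists were read in the same comparison, against the same 5.14% and 6.23% of all genes. Neocortical markers were higher for 4 and lower for 1 of 7 at an unadjusted p below 0.05, led by Cux2 (log2 fold change 1.14, unadjusted p = 0.00235 in edgeR), Lamp5 and Rorb. CA1 markers were lower for 2 of 5 (Fibcd1 and Pou3f1), dentate gyrus markers for 2 of 6 (Tdo2 and C1ql2), and CA3 markers higher for 1 and lower for 2 of 5 (Coch, and Cdh24 and Nnat). Endothelial markers were higher for 3 of 4, pituitary markers for 3 of 4, and oligodendrocyte precursor (Cspg4) and thalamic (Lef1) markers for 1 each of 4 and 6. When MRL-IRAK4-KD replicate 4 was left out, 1967 of all 37836 genes were higher and 1255 lower by this rule. The CA1, CA3 and dentate lists then each kept 1 lower gene (Fibcd1, Cdh24 and Tdo2) and no higher one. Neocortical markers were then higher for 3 and lower for 1 (Fezf2), and endothelial markers were higher for 4. Gad1 of the interneuron markers was then lower and Aldh1l1 of the astrocyte markers higher. Pituitary markers summed to 85.5 CPM in MRL replicate 3, without which none of these 3 was at a p below 0.05, and to at most 4.87 CPM in all mice of the other groups. No astrocyte, oligodendrocyte, interneuron, striatal or choroid plexus marker was at an unadjusted p below 0.05, although choroid plexus markers ranged from 67.2 CPM in MRL replicate 2 to 7807 CPM in MRL-IRAK4-KD replicate 4. Of the 5 microglial markers, Cx3cr1, P2ry12, Tmem119 and Csf1r had log2 fold changes from 0.12 to 0.18, with p above 0.05 in edgeR for these 4, while with MRL-IRAK4-KD replicate 4 left out the p of Cx3cr1 and Tmem119 was below 0.05, both being higher in MRL. These 4 summed to 252.4, 200.8, 197.5 and 215.2 CPM in MRL replicates 1 to 4, between 192.1 and 205.2 CPM in MRL-IRAK4-KD, between 168.0 and 185.0 CPM in C57BL6/J and between 167.2 and 181.6 CPM in IRAK4-KD mice. The 8 lpr mice were above the 6 mice labelled as without lpr, and the part of these markers in the results was not tested. Markers of CA1, CA3 and the dentate gyrus were present in all 14 libraries, with sums of at least 341.6, 215.1 and 169.5 CPM.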

How the data were processed

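RNA was taken from hippocampi of perfused mice. Per the labels the authors used HISAT2 2.1.0 on mm10 and deposited StringTie 2.1.0 counts per gene and per transcript, as whole numbers without normalization. These counts are computed from read coverage rather than tallied, and totals came to between 1.40 and 2.08 counts per read listed by the sequencing core, whose deposited sheet of read counts was used only for this check. The annotation is not given in the sources used here, and identifiers match GENCODE M21. The study's methods name a SMART-seq preparation and the labels a KAPA HyperPrep mRNA kit. No strand setting is given, so reads of overlapping genes cannot be told apart. Between 0.0254% and 0.188% of counts lay outside Ensembl genes and were left out.

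Genes with at least 10 counts over 14 libraries were fitted with edgeR 4.0.16 (robust quasi-likelihood, TMM, 1 model of the 4 groups) in R 4.3.3, with Benjamini-Hochberg adjustment over all 38070 genes. The fit was tested on counts simulated from each gene's mean and spread. That simulation held no outlying or mislabelled library, so it cannot show how the fit handles one. DESeq2 1.42.0 and limma 3.58.1 (voom with quality weights) were alternatives. Single genes were compared by two-sided exact permutation tests on log2(CPM + 0.1), which cannot go below 0.0286 for 4 mice against 4. Ratios and levels per kilobase used the union of annotated exons. Replicate numbers name separate mice. Correlations of deviations between same-numbered MRL and MRL-IRAK4-KD mice were 0.108, -0.031, -0.011 and 0.061, so the numbers were not taken to pair mice.

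All 32 members are given by their values, with fold change, SE and p for those at an unadjusted p below 0.05. From other lists, up to 3 genes with the smallest p in MRL against MRL-IRAK4-KD mice are named, and some results are not reported here. The members and lists were chosen with earlier results of these data known. Alternatives were other size factors, filters and tools, only the groups compared, the replicate number as a block, and mice left out 1 at a time or 2 together. Figures were drawn with matplotlib 3.10.9.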

Additional observations from a re-analysis of the deposited data

Results flagged for a closer look

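Dixon's test, which chance meets in about 1 of 20 groups, was applied to the CPM of each member in the MRL and MRL-IRAK4-KD groups of 4 mice, and in 10 of 64 groups 1 mouse lay far from the other 3. In 7 of these 10 that mouse was MRL-IRAK4-KD replicate 4. It was highest for Gria2 (1451 CPM against 1044 to 1075 CPM in the other 3), Grin1 (567.7 against 386.4 to 402.9 CPM), Cacng4 (58.6 against 26.9 to 30.3 CPM), Grin2d (23.8 against 12.8 to 14.6 CPM) and Grin3b (0.432 against 0.120 to 0.157 CPM). It was lowest for Shisa9 (7.30 against 50.3 to 58.0 CPM) and Grm7 (17.7 against 40.5 to 44.1 CPM). MRL replicate 1 was highest of its group for Cnih2 (277.5 against 186.0 to 201.5 CPM) and lowest for Gria4 (56.4 against 81.6 to 85.3 CPM). MRL replicate 4 was lowest for Grin3b (0.169 against 0.264 to 0.268 CPM). No member had an interaction of lpr and the kinase-dead allele at an adjusted p below 0.05 in edgeR, where 2 were at an unadjusted p below 0.05.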

How the results depend on the processing

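The members counted at an unadjusted p below 0.05 moved by more than 1.5 times under some alternatives, and the cause was not tested. With limma-voom and quality weights there were 13 in MRL against MRL-IRAK4-KD, 9 in MRL against C57BL6/J, 5 in IRAK4-KD against C57BL6/J, 5 in MRL-IRAK4-KD against IRAK4-KD and 5 for the interaction. With only the groups compared there were 3, 7 and 5 in the first 3 of these, and DESeq2 gave 3 in MRL-IRAK4-KD against IRAK4-KD. Of all genes, 2372 of 35701, 3174 of 35373 and 2350 of 34876 were at this p in the first 3 fits. By DESeq2 it was 3683 of 38070. Without IRAK4-KD replicate 3 and MRL-IRAK4-KD replicate 4 there were 7 in MRL against C57BL6/J and 4 in MRL-IRAK4-KD against IRAK4-KD. All genes at this p then numbered 3805 and 2547 of 37453. With the replicate number as a block, which does not pair the mice, there were 4 in MRL against C57BL6/J, 2 in MRL-IRAK4-KD against IRAK4-KD and 4 for the interaction, and 7 and 4 in the other comparisons. All genes at this p numbered 2355, 1853, 1174, 3549 and 1343 of 38070 in the same order. With 1 mouse left out in turn, between 37702 and 37895 genes were tested. In the order first given, those at this p ranged from 2633 to 5875, 1462 to 2099, 944 to 1393, 1677 to 4524 and 1099 to 2274. The members among them ranged from 3 to 8, 1 to 5, 1 to 3, 1 to 5 and 0 to 3, in the same order. At an adjusted p below 0.05 the counts were 0 except for 1 by DESeq2 (Grik4) and 2 by limma-voom (Grik4 and Cacng3) in MRL against MRL-IRAK4-KD, where leaving out 1 mouse gave 0 to 1 (Grik4, without MRL replicate 1), and 1 by limma-voom (Grin1) in MRL-IRAK4-KD against IRAK4-KD. No member at an unadjusted p below 0.05 reversed its sign under any alternative. Among the others 9, 14, 17, 15 and 14 members did in at least 1 fit, in the order first given, and the largest of their fold changes in each comparison was 0.22, 0.26, 0.15, 0.33 and 0.35 in size on the log2 scale. With limma-voom 7 did in MRL against MRL-IRAK4-KD, among them Cacng2, Cacng4 and Grik2. The values of the other lists without single mice, given with them, were chosen after seeing the data. The exact permutation test gave its smallest p for 2 members with either pseudocount. Grin3b had as few as 45 counts in a library, and groups of 3 or 4 mice limit every comparison.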
